A study of Homo sapiens with 10 samples.

Results

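The genes examined here are 8 members of the early growth response circuit in NB4 cells: the EGR transcription factors EGR1, EGR2 and EGR3, their corepressors NAB1 and NAB2, and the immediate early response genes IER2, IER3 and IER5. They were taken by name from the protein-coding rows of the expression tables, and all 8 were found among 60603 genes. NB4 is an established line from an acute promyelocytic leukemia, and the study asked how its transcriptome responds to loss of GSE1 and to inhibition of the histone demethylase LSD1 (gene KDM1A). In the knockdown experiment, cells carried the empty pLKO.1 puro lentiviral vector (EV) or that vector with 1 of 2 hairpins against GSE1, a subunit of LSD1-containing corepressor complexes, named shA1 and shB2, and RNA was taken at 48 h. In the inhibitor experiment, NB4 cells received 2 µM of the LSD1 inhibitor MC2580 or the solvent DMSO for 24 h. Each of the 5 conditions was sequenced as 2 libraries from 1 cell line, 10 libraries in all.

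EGR proteins are zinc finger transcription factors whose genes are switched on within minutes of growth factor, stress or differentiation signals, largely through ERK signaling and serum response factor (SRF) bound at CArG boxes in their promoters. NAB1 and NAB2 bind EGR1, EGR2 and EGR3 and repress their target genes, and EGR proteins in turn activate NAB2, which closes a negative feedback loop. In myeloid progenitors, EGR1 and EGR2 with the NAB proteins are known for favoring the macrophage over the granulocyte fate. IER2, IER3 and IER5 are small proteins of the same rapid response, with IER3 linked to survival signaling and IER5 to the heat shock factor HSF1 and the phosphatase PP2A.

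The values are the authors' DESeq2 results for each comparison, a log2 fold change with its standard error (SE) and Wald test, and the base mean, which is the average of the normalized counts over the libraries of an experiment. The tables used here hold no value per library, so the level of a gene in each condition was rebuilt from the base mean and the fold changes and is given in normalized counts per library, and the spread between libraries is given by the SE, the 95% interval (Wald) and the dispersion that the SE implies. A gene was called where the adjusted p-value was under 0.01 and the log2 fold change was larger than 1 in size, the threshold of the study. Normalized counts summed to an average of 40543130 per library in the knockdown and 41201112 in the inhibitor experiment. GSE1 itself went from 4102 in EV to 2407 with shA1 and 2380 with shB2, a log2 fold change of -0.77 and -0.79, and was 4337 in DMSO and 4545 with MC2580. KDM1A lay between 6170 and 7815 in all 5 conditions. Of the promyelocyte markers, MPO was among the most abundant transcripts (712720 in EV), whereas ELANE was near 0 (base mean 1.10). Of 8 markers of lymphoid, erythroid and platelet lineages, 4 had a base mean under 10 in the knockdown experiment, and CD3D was the highest (base mean 865.9).

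EGR1 fell under both GSE1 hairpins and showed no called change with MC2580. EGR1 (ENSG00000120738.8, chr5:138465479-138469303, plus strand, hg38) was at 4281 normalized counts in EV, 792 with shA1 and 134 with shB2. It was therefore 5.40-fold lower with shA1 (log2 fold change -2.43, SE 0.71, adjusted p = 0.00398) and 31.9-fold lower with shB2 (log2 fold change -4.99, SE 0.72, adjusted p = 6.61e-11, Wald test of DESeq2). The 95% intervals of these log2 fold changes ran from -3.83 to -1.04 and from -6.40 to -3.59, and they share the EV libraries. In the inhibitor experiment EGR1 was at 810 in DMSO and 676 with MC2580, a log2 fold change of -0.26 with an interval from -2.77 to 2.25, wide enough to hold the value seen with shA1, so that a change of that size was not detectable at this spread. The shA1 call was not kept when the test asked for a change significantly larger than 1 rather than different from 0.

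The rebuilt level of EGR1 was higher in the EV cells than in the DMSO cells, with a wide spread in both experiments. Both are control cells of the same line, but they belong to experiments that were normalized separately and differ in lentiviral transduction, culture and time, which cannot be told apart here, so the levels are set side by side with no test. Among 10916 protein-coding genes whose base mean was 50 or more in each experiment, the median ratio of EV to DMSO was 1.02 and 7 genes differed by more than 4-fold. EGR1 was one of these, at a ratio of 5.29, and ranked 3 from the top. FOS, the immediate early subunit of AP-1, ranked 2 with 652 in EV and 100 in DMSO. Rank 1 was AC000093.1, with 564 in EV and 25.2 in DMSO. The remaining genes beyond 4-fold were lower in EV, down to a ratio of 0.0878. NAB1, NAB2, IER2 and IER5 had ratios of 0.893, 0.841, 1.12 and 0.999. EGR2, EGR3 and IER3, whose base mean was under 50 in the inhibitor experiment, had ratios of 2.84, 21 and 0.125. The EGR1 level with shA1 was 792, beside 810 in the DMSO cells, and the level with shB2 was lower than either. The coefficient of variation between libraries that the SE implies for EGR1 was 49.4% in the knockdown and 88.6% in the inhibitor experiment. The nearness of 792 and 810 therefore carries little weight. The ratio of 5.29 and its rank rest on the same spread, which the ranking does not take into account. EV is the reference for both hairpins, so its level enters both EGR1 fold changes.

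**Figure D1:**
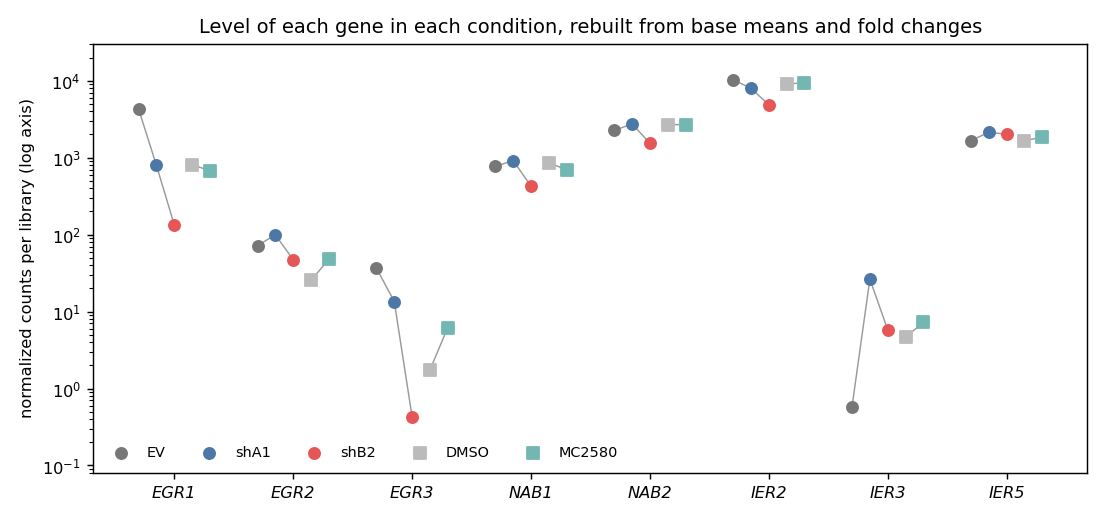
Rebuilt level of each of the 8 genes in each condition, in normalized counts per library on a log axis, with circles for the knockdown experiment (EV, shA1, shB2) and squares for the inhibitor experiment (DMSO, MC2580). EGR1 steps down from 4281 to 792 and 134 across EV, shA1 and shB2 while DMSO and MC2580 stand at 810 and 676, and IER2 steps from 10247 to 7999 and 4846. The points are estimates of a condition, with no error bar, and those of EGR3 and IER3 rest on few counts.

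The reference promoter of EGR1 held a pair of CArG boxes, the SRF binding element, and 1 of the 3 reference windows of EGR2 held 1. They are shown here because SRF input is the shared entry point of these genes. The stretches are the 120 bases before the annotated transcript start (RefSeq, GRCh38.p14), written 5′ to 3′ on the strand of the gene with the CArG boxes in capitals, at chr5:138465359-138465478 (plus strand) for EGR1 and chr10:62816367-62816486 (minus strand) for EGR2.
EGR1: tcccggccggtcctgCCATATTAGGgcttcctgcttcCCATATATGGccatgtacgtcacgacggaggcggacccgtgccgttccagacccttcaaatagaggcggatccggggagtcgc
EGR2: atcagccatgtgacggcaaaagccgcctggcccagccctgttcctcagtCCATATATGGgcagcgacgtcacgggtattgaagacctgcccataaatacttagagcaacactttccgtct
Counted from the transcript start, the EGR1 boxes lay at -105 to -96 and at -83 to -74, and the EGR2 box lay at -71 to -62 with the same 10 letters as the EGR1 box nearer to the start. A CArG box was found on either strand in 1.29% of 35097 promoter windows of the same 300 bases, 250 before and 50 after the start. EGR1 and EGR2 share this element in their promoters, but EGR2 was not called in any comparison.

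EGR2 (ENSG00000122877.16, chr10:62811996-62819167, minus strand), a partner of EGR1 in macrophage differentiation, was expressed far below EGR1, at 72.1 normalized counts in EV, 99.3 with shA1, 47.2 with shB2, 25.4 in DMSO and 47.8 with MC2580. None of its changes passed the test, with log2 fold changes of 0.46 (SE 1.24) for shA1, -0.61 (SE 1.25) for shB2 and 0.91 (SE 0.75) for MC2580. The interval for shB2 reached from -3.05 to 1.83. EGR3 (ENSG00000179388.9, chr8:22687659-22693480, minus strand) was close to the limit of detection, with a base mean of 16.9 in the knockdown and 3.97 in the inhibitor experiment. Its level was 36.7 in EV, 13.5 with shA1 and 0.43 with shB2, and the log2 fold change of -6.41 for shB2 had an SE of 3.47 and an adjusted p of 0.151. The order of EGR3 over EV, shA1 and shB2 was the order of EGR1, but it was not separated from 0 by the test. EGR4, the remaining member of the family, had a base mean of 0.155 and was not tested.

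Among the 6 members whose base mean was 50 or more in the knockdown experiment, the spread between libraries set EGR1 and EGR2 apart. EGR3 and IER3, below that level, had larger SEs still, 3.23 and 1.86 with shA1. The dispersion implied by the SE was 0.244 for EGR1, equal to a coefficient of variation between libraries of 49.4%, against a median of 10.4% over the 12463 genes whose base mean was 50 or more. It exceeded that of 99.6% of these genes, and the dispersion of EGR2, 0.728, exceeded that of 99.8%. In the inhibitor experiment the dispersion of EGR1 was 0.784, a coefficient of variation of 88.6% against a median of 15.8%, above 99.9% of genes. In the knockdown experiment the coefficient of variation was 7.22% for IER2, 8.0% for IER5 and 8.09% for NAB2, all below the median, and 10.8% for NAB1, near it. Among 30 other immediate early genes of that level, 5 lay in the top 10% of dispersion (FOS, FOSB, IER5L, KLF2 and TNFAIP3, named because they are so few), and in the inhibitor experiment 0 of 26 did. These shares are not matched on base mean, and dispersion was higher at low base means. IER5L and KLF2, at dispersions of 0.0906 and 0.081 and base means of 78.4 and 80.7, were like many genes of their level. Which libraries differed for EGR1 was not analysed here, since it needs values per library.

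**Figure D2:**
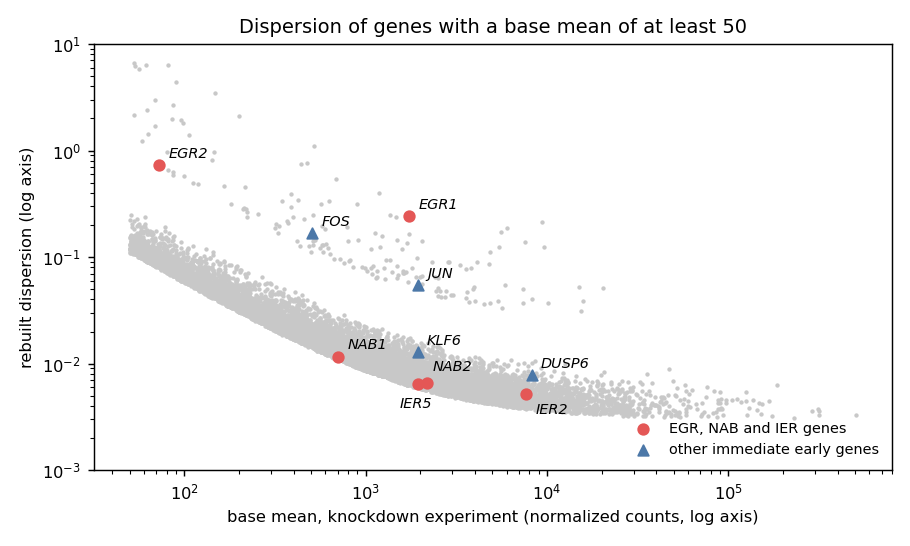
Dispersion rebuilt from the SE of each gene against its base mean in the knockdown experiment, both on log axes, for genes whose base mean was 50 or more (grey). EGR1 at 0.244 and EGR2 at 0.728 (red circles) lie in the sparse upper band, where FOS (blue triangle) also lies. JUN (blue triangle) lies lower, above 85.8% of these genes. NAB1, NAB2, IER2 and IER5 lie in the main cloud between 0.00521 and 0.0116.

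Over the 8 members, 1 was called lower with shA1 and 2 with shB2, and 0 were called higher with either. Of all genes tested, 0.786% were called lower and 4.32% higher with shA1, and 2.91% lower and 5.58% higher with shB2. At an adjusted p under 0.01 with no fold threshold, 2 members were lower with shA1 and 4 with shB2, and 0 were higher, beside 7.99% of genes lower and 11.3% higher with shA1 and 12.1% lower and 14.2% higher with shB2. The median log2 fold change of the members was 0.27 with shA1 and -0.73 with shB2, against -0.002 and 0.001 over all genes tested. With MC2580 no member was called by the DESeq2 test, where 0.587% of genes were called higher and 0.0162% lower. An adjusted p was given there for 7 members and not for EGR3, whose base mean was 3.97. Of the 8, 0 had an unadjusted p under 0.05.

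The NAB corepressors were lower with shB2 by the adjusted p but not by the fold threshold, and neither passed with shA1. NAB1 (ENSG00000138386.17, chr2:190646746-190692766, plus strand) was at 769 normalized counts in EV, 918 with shA1 and 426 with shB2. Its log2 fold change was -0.85 with shB2 (SE 0.17, adjusted p = 3.53e-06), short of the fold threshold, and 0.26 with shA1 (SE 0.16, adjusted p = 0.27). NAB2 (ENSG00000166886.13, chr12:57089043-57095476, plus strand) was at 2256 in EV, 2746 with shA1 and 1539 with shB2, a log2 fold change of -0.55 with shB2 (SE 0.12, adjusted p = 4.04e-05) and 0.28 with shA1 (SE 0.12, adjusted p = 0.0637). The levels with shB2 were 2.15-fold below those with shA1 for NAB1 and 1.78-fold below for NAB2.

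The difference of the hairpins was tested directly, with an SE that leaves out the covariance of the shared EV libraries and is thus an upper bound. For NAB1 it was -1.11 on the log2 scale (SE 0.23, adjusted p = 7.45e-05), the only member past both thresholds, and for NAB2 it was -0.84 (SE 0.17, adjusted p = 3.75e-05), past the p but not the fold threshold. By this test 2.2% of 16673 genes were called lower and 0.828% higher in shB2 than in shA1. For GSE1 mRNA the difference was -0.02 (SE 0.19, adjusted p = 0.996). This does not describe the protein, for which the study reported by western blot a stronger depletion with shB2 than with shA1. With MC2580, NAB1 changed by -0.31 (interval from -0.88 to 0.26) and NAB2 by 0.01 (interval from -0.36 to 0.37). Of NAB2, 69 exon bases are shared with STAT6 on the opposite strand, and NAB1 shares bases with 2 antisense noncoding RNAs of low level. The library kit does not mark strand, so that reads from the shared bases cannot be assigned by strand.

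Both NAB promoters held EGR sites, which are the 9-base elements bound by the zinc fingers of EGR proteins and bear on the feedback between EGR1 and its corepressors. The stretches are again the 120 bases before the transcript start (RefSeq, GRCh38.p14), with the EGR site GCGGGGGCG, or its reverse complement, in capitals, at chr2:190648775-190648894 for NAB1 and chr12:57088994-57089113 for NAB2, both on the plus strand.
NAB1: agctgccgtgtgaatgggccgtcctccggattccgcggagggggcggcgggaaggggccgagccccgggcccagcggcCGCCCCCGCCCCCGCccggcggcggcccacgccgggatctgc
NAB2: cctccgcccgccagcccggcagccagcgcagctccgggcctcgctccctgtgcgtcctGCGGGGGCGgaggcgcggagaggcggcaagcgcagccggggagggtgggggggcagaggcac
In NAB1 the capitals hold 2 overlapping copies on the minus strand, at -42 to -34 and -36 to -28, and a copy of the form GCGTGGGCG lay just after the start, at 14 to 22. NAB2 held 1 copy at -62 to -54. GCGGGGGCG was found in 5.07% and GCGTGGGCG in 0.789% of the 35097 windows, on either strand. Both forms are rich in G and C, as many promoters are, and a match of letters says nothing on binding. The windows of IER2 and IER5 held neither the CArG box, these EGR sites, the cAMP response element TGACGTCA nor the AP-1 site TGANTCA. In all, 10 windows of 6 of the 8 members were searched, and no window of EGR3 or IER3 was among them. Of the 10 windows, 5 held none of these motifs. EGR2 and NAB1 had 3 windows each, and the stretches printed are from window 1. The other windows of EGR2 and window 3 of NAB1 held no motif. The starts used for EGR2 and NAB1 lie inside the gene spans given here, not at their outer end.

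A short match to the shB2 hairpin was also looked for, because the hairpins differed for these genes. Of the 8 members, NAB1 alone held the heptamer TTCACTA, the complement of guide positions 5 to 11 of shB2, in its 3′ UTR, as 1 copy starting at base 983 of 2433, with the heptamer in capitals.
NAB1: tagatgctTTCACTAgggaatgt
The same heptamer was present in 13.6% of 1923 expressed genes with a 3′ UTR within 25% of that length. The other members, NAB2 and IER2 included, held 0 copies of it, and none of the 8 held the seed site ACTATAT of shB2 or the corresponding heptamers of shA1, TGACGTC and CGTCAAT. The part of this match in the NAB1 level was not tested.

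IER2 was the most abundant member and fell with shB2. IER2 (ENSG00000160888.7, chr19:13150411-13154911, plus strand), a nuclear immediate early protein that regulates transcription, was at 10247 normalized counts in EV, 7999 with shA1 and 4846 with shB2. It was 2.115-fold lower with shB2 (log2 fold change -1.08, SE 0.11, adjusted p = 1.15e-22), and with shA1 its log2 fold change was -0.36 (SE 0.11, adjusted p = 0.00422), past the p threshold but not the fold threshold. The hairpins differed by -0.72 (SE 0.15, adjusted p = 4.44e-05). In DMSO and with MC2580 it was at 9135 and 9309, and the interval of that log2 fold change, -0.33 to 0.39, did not overlap the interval for shB2, -1.29 to -0.87. The shB2 value lies just past the fold threshold of 1, and the call was not kept when the test asked for a change significantly larger than 1. Exons of IER2 share 946 and 662 bases with 2 antisense noncoding RNAs of base mean 32.2 and 5.71.

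IER5 (ENSG00000162783.10, chr1:181088700-181092900, plus strand) was not called in any comparison. It was at 1662 in EV, 2140 with shA1 and 2013 with shB2, log2 fold changes of 0.36 (SE 0.12, adjusted p = 0.0118) and 0.28 (SE 0.12, adjusted p = 0.0619), neither past the p or the fold threshold. The difference between the hairpins was -0.09 with an interval from -0.42 to 0.24. With MC2580 it was at 1845 against 1664 in DMSO. Its relative IER5L, of lower level, rose with both hairpins, by 1.75 (SE 0.48, adjusted p = 0.00195) and 1.78 (SE 0.48, adjusted p = 0.00121), from 30.2 in EV to 102 and 103, and its log2 fold change with MC2580 was 0.04.

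IER3 (ENSG00000137331.12, chr6:30743199-30744548, minus strand), which restrains apoptosis in many cell types, was barely detected in EV, at 0.58 normalized counts, and stood at 26.4 with shA1, 5.80 with shB2, 4.65 in DMSO and 7.22 with MC2580. With an EV level under 1 count the size of its fold change is not determined, and the adjusted p was 0.0145 with shA1 and 0.179 with shB2. IER3 with shA1 passes a threshold of adjusted p under 0.05 and not the one used here.

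**Figure D3:**
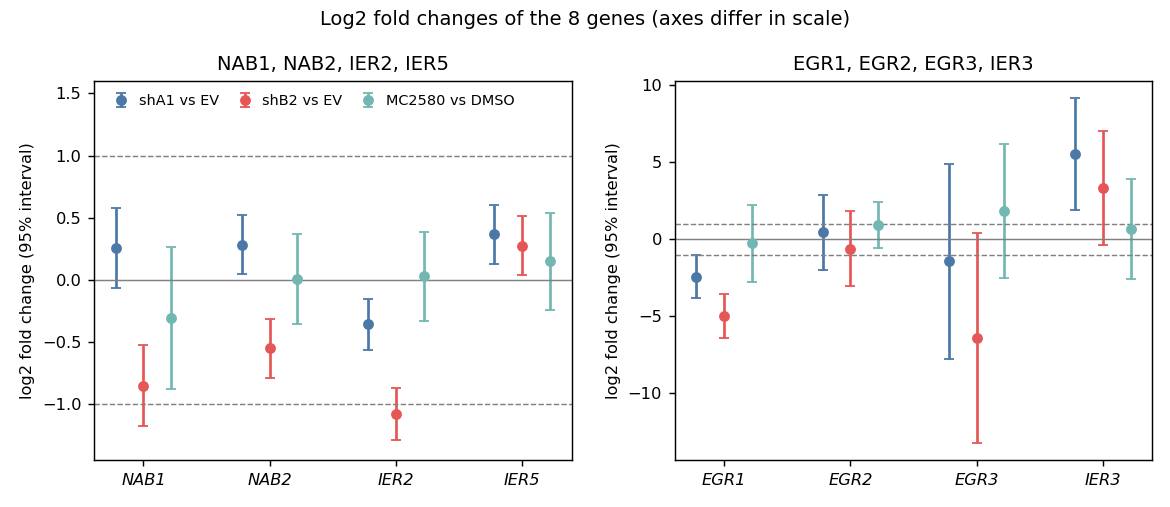
Log2 fold change of each member with its 95% interval (Wald) for each hairpin against EV and for the inhibitor against its solvent, with dashed lines at 1 and -1. NAB1, NAB2 and IER2 (left, fine scale) lie lower with shB2 than with shA1, while IER5 lies at 0.36 and 0.28, and EGR1 (right, coarse scale) is the member with both hairpin intervals below -1. The intervals of EGR2, EGR3 and IER3 with shB2 include 0.

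Set in order of level per transcript length (CPM computed on the normalized counts, per kb of the canonical transcript), the members in EV ran from IER2 at 117, through EGR1 at 32.8, NAB2 at 21.7, IER5 at 9.50 and NAB1 at 4.09 to EGR2 at 0.581, EGR3 at 0.195 and IER3 at 0.0112. IER2 was higher than 96.2% of the protein-coding genes with a level above 0. IER2 also led in DMSO, where the order was IER2 at 106, NAB2 at 26.3, IER5 at 9.67, EGR1 at 6.30, NAB1 at 4.66, EGR2 at 0.208, IER3 at 0.0918 and EGR3 at 0.00943. EGR1 therefore stood above NAB2 and IER5 in EV and below them in DMSO. With its coefficient of variation of 49.4% in the knockdown experiment and 88.6% in the inhibitor experiment, EGR1 differed from NAB2 in EV, and from IER5 and NAB1 in DMSO, by less than its spread, and the order of EGR2, EGR3 and IER3 rests on few counts.

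Most of the other immediate early genes that changed went up with the hairpins, unlike EGR1 and IER2. Of 36 such genes, all listed with earlier results known, 13 of 32 tested rose and 0 fell with shA1, and 9 of 33 rose and 1 fell with shB2, where 4.32% and 5.58% of all genes tested rose, with median log2 fold changes of 0.815 and 0.72. At an adjusted p under 0.01 with no fold threshold, 18 were higher and 2 lower with shA1, where 11.3% and 7.99% of all genes were. With shB2, 15 were higher and 4 lower, where 14.2% and 12.1% were. The hairpins share the EV libraries, so that these are not independent counts. The phosphatase DUSP4, which dampens ERK signaling, rose by 1.82 with shA1 and 1.96 with shB2, and DUSP5, its relative, by 1.99 and 2.47. The AP-1 subunit FOSL2 rose by 1.06 and 1.31, and the kinase SGK1 by 1.41 and 3.37. BTG2, an antiproliferative gene, rose by 4.05 and 2.77. FOSL1, another AP-1 subunit, rose with shA1 alone by the threshold, at 1.21 beside -0.15 with shB2, and the difference of the hairpins had an adjusted p of 1.10e-09. DUSP6, the ERK-specific phosphatase, rose by 1.62 with shA1 and was at 0.96 with shB2. MYC fell by 1.44 on the log2 scale with shB2 and was at -0.85 with shA1, from 35310 in EV to 12988 and 19556.

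FOS, often induced with EGR1 through the same SRF input, was at 652 in EV, 629 with shA1 and 243 with shB2. Its log2 fold change with shB2, -1.42, had an adjusted p of 0.0493. With MC2580, FOS rose by 1.85 (adjusted p = 0.00197), from 100 to 361, and KLF4, a monocytic zinc finger factor, rose by 1.95 (adjusted p = 4.87e-14). These were the 2 of 31 immediate early genes called with MC2580, and the list's median log2 fold change was 0.12. EGR1 was at -0.26 there, with an interval that holds a rise of the size of FOS.

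**Figure D4:**
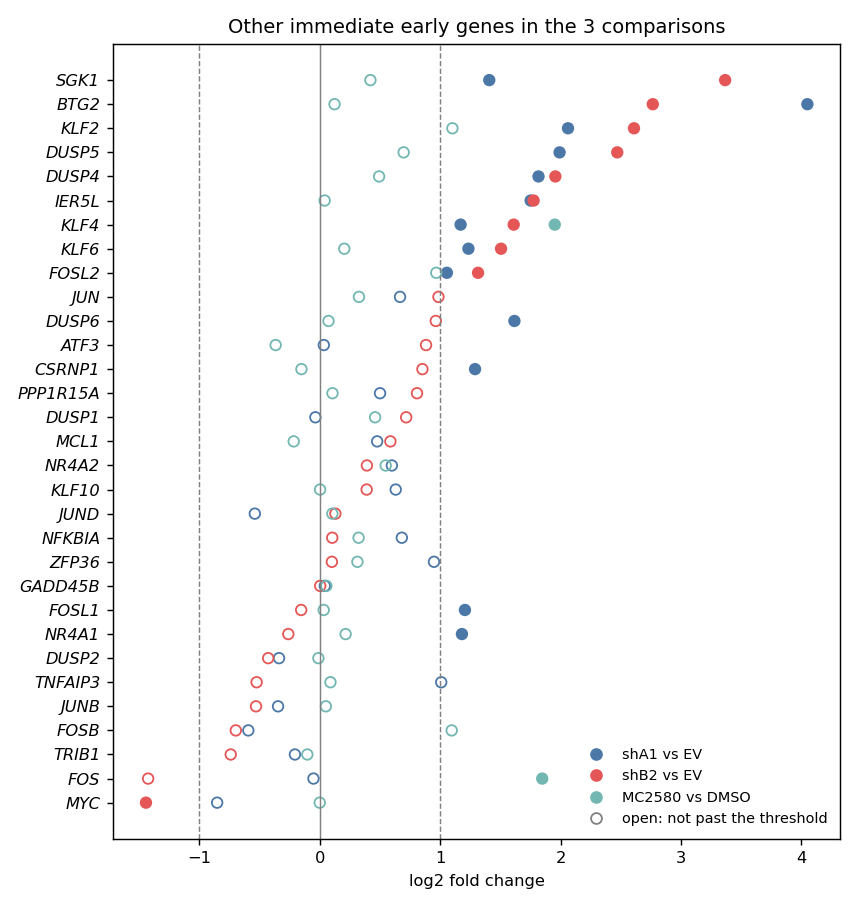
Log2 fold changes of the other immediate early genes whose base mean was 10 or more in the knockdown experiment, for the 3 comparisons, ordered by the shB2 value. Filled points passed the threshold and open points did not. Filled points lie to the right for all genes but MYC, and FOS is open at -1.42 with shB2 and filled at 1.85 with MC2580.

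Of 23 genes of the ERK and SRF route that feeds EGR1, all tested, 1 rose and 0 fell with shA1, 2 rose and 2 fell with shB2, and 0 were called with MC2580. At an adjusted p under 0.01 with no fold threshold, 10 were higher and 1 lower with shA1, where 11.3% and 7.99% of all genes were, and 9 were higher and 2 lower with shB2, where 14.2% and 12.1% were. NRAS, a RAS GTPase upstream of ERK, fell by 1.03 with shB2 and was at 0.005 with shA1, a difference of -1.03 (adjusted p = 3.10e-09). The risers were RPS6KA2, a ribosomal S6 kinase downstream of ERK, by 1.38 with shA1, and RPS6KA4 and the ternary complex factor ELK3 with shB2, by 1.13 and 1.07. The ERK and SRF list as a whole had a median log2 fold change of 0.37 with shA1 and 0.34 with shB2. The part of NRAS in the EGR1 and IER2 levels was not tested.

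None of the genes reported as EGR1 targets was called lower, though TNF was just short of the fold threshold with shB2. Its log2 fold change there was -0.99 (adjusted p = 1.51e-05, Wald test), beside 0.75 with shA1. At an adjusted p under 0.01 with no fold threshold, 9 targets were higher and 0 lower with shA1, where 11.3% and 7.99% of all genes were. With shB2, 7 were higher and 1 lower, where 14.2% and 12.1% were. Of 13 tested, 5 rose with shA1, 3 with shB2 and 1 with MC2580, where 4.32%, 5.58% and 0.587% of all genes tested rose, with median log2 fold changes of 0.78, 0.70 and 0.30. The adhesion molecule ICAM1 rose in all 3, by 3.86, 2.39 and 1.35. The urokinase receptor PLAUR rose by 1.03 with shA1 and 1.33 with shB2, and the matrix protein thrombospondin 1 (THBS1) by 3.61 with shB2. The matrix protease MMP14 and the hyaluronan receptor CD44 rose by 1.14 and 1.09 with shA1. These genes have many other inputs. Of the monocyte and macrophage markers, 7 of 10 were called higher with shA1, 7 of 10 with shB2 and 4 of 10 with MC2580, beside the same shares of all genes, with a summed level of 3163 in EV, 10124 with shA1, 12088 with shB2, 3333 in DMSO and 8507 with MC2580. Of the promyelocyte markers, 2 of 5 tested fell with each hairpin, CTSG and PRTN3 with shA1 and AZU1 and PRTN3 with shB2, where 0.786% and 2.91% of all genes fell, and 0 were called with MC2580. Their summed level, mostly MPO, was 726420 in EV, 437194 with shA1, 387005 with shB2, 763996 in DMSO and 916317 with MC2580. The part of both marker lists in the changes of the members and targets was not tested, and in these bulk libraries fewer cells of a type and less RNA per cell cannot be told apart.

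The partners of the NAB and IER proteins gave calls only in NuRD with shB2. Of 13 subunits of NuRD, the chromatin remodeling complex that NAB2 recruits, 0 were called with shA1 or MC2580. With shB2, 1 rose and 1 fell, where 5.58% and 2.91% of all genes tested did. GATAD2B rose by 1.21 and the methyl-CpG binding protein MBD2 fell by 1.65 on the log2 scale, against -0.12 for MBD2 with shA1. At an adjusted p under 0.01 alone, 1 was higher and 1 lower with shA1, where 11.3% and 7.99% of all genes were. With shB2, 3 were higher and 2 lower, where 14.2% and 12.1% were. Of 13 tested PP2A subunits and heat shock genes linked to the IER proteins, 0 were called in any comparison, with medians of -0.29, 0.02 and -0.13, and at an adjusted p under 0.01 alone 1 was higher and 5 were lower with shA1, where 11.3% and 7.99% of all genes were, 2 were higher and 2 lower with shB2, where 14.2% and 12.1% were, and 0 passed with MC2580.

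The genes with the pattern most like that of EGR1 were sought by the Euclidean distance of the 3 log2 fold changes over 10916 protein-coding genes. The nearest was AC011511.4 at a distance of 1.71, followed by TMEM150A at 2.00, CYTL1 at 2.55, VIT at 2.80 and GPR160 at 2.81. The distance takes no account of the SEs, which for EGR1 are 0.71, 0.72 and 1.28 on the 3 axes. AC011511.4 was at -3.90 and -4.77 with shA1 and shB2, and CYTL1 at -0.08 and -4.24. Around IER2, whose fold changes and SEs are smaller, the nearest 5 lay at distances between 0.058 and 0.092: NUP62, a nuclear pore protein, DPH2, which acts in diphthamide synthesis, IFT172, an intraflagellar transport protein, MYBBP1A, a nucleolar protein, and C19orf53. NUP62 was at -0.33 with shA1, -1.07 with shB2 and 0.08 with MC2580, beside -0.36, -1.08 and 0.03 for IER2. The likeness is over 3 comparisons that share the EV libraries in part and is a description only.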

How the data were processed

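NB4 cells were profiled by mRNA-seq, with 2 libraries in each of 5 conditions. Per the labels and methods, the authors used TruSeq v2 libraries, bcl2fastq 2, FastQC 0.11.5, STAR 2.7 on hg38, RSEM and DESeq2 (other versions: not given in the sources used here). Signal columns in the deposited tables are base means of counts over size factors. The log2 fold changes with SEs, the score values (Wald statistics) and the p-values with Benjamini-Hochberg adjustment are the authors' deposited results and stand as they are, since no value or total count per library was used here.

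From these, levels per condition were computed (assuming libraries of equal weight), as were dispersions (squared SE minus counting error) and the hairpin difference (Wald test, adjusted over 16673 genes). Over 12463 genes whose base mean was 50 or more, dispersions from the shA1 and the shB2 SE differed by under 2% in 96.5%. The code was also run on simulated counts. Their SEs were built with the same formula, so recovery of the dispersion was fixed in advance. Whether that formula holds for the authors' SEs was not tested by it. Gene models came from GENCODE release 44, which matched 60261 of 60558 identifiers, and promoters from RefSeq. The alternatives tried were other thresholds, filters, centring and SEs.

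The members and lists were chosen with earlier results of these data known. Genes named are the members, relatives, checks, markers, up to 4 per list, direction and comparison by smallest adjusted p past the threshold, and the 5 nearest to EGR1 and IER2. STAT6, FOSB, KLF2, TNF, TNFAIP3 and AC000093.1 were named after their values were seen. A further gene of the ERK and SRF list that this rule names is not reported here.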

Additional observations from a re-analysis of the deposited data

Results flagged for a closer look

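The response of 3 members differed between the hairpins by the Wald test of the difference, at an adjusted p under 0.01. The value with shB2 was below that with shA1 by -1.11 on the log2 scale for NAB1, by -0.84 for NAB2 and by -0.72 for IER2. GSE1 mRNA itself was at 2407 and 2380 normalized counts with shA1 and shB2. The difference for EGR1 was -2.56, at an adjusted p of 0.0903 with the upper bound of the SE and 0.00284 with the SE rebuilt from the dispersion.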

How the results depend on the processing

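Of 224 member results put through the alternatives, 211 kept their direction and their side of the threshold, 10 gained a call, 3 lost one and 0 reversed. The alternatives reuse the same log2 fold changes, and only median centring shifts them slightly. A reversal was thus hardly possible, and the counts describe the calls alone. With shA1, 2 members were called at an adjusted p under 0.05 (EGR1 and IER3) and 2 with no fold change threshold (EGR1 and IER2), and 0 by the test against a change of 1. With shB2, 4 were called with no fold change threshold (NAB1 and NAB2 added), 1 at a log2 fold change over 2 and 1 by the test against a change of 1, EGR1 in both cases. The difference between hairpins was called for 2 members with the rebuilt SE (EGR1 and NAB1), for 3 with no fold threshold (NAB1, NAB2 and IER2), and for 4 with both, an alternative chosen after seeing the data. With MC2580, 0 members were called under all 8 alternatives. Median centring, no filter on low values, a base mean of at least 50 and protein-coding genes only changed no call.

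No paired analysis was possible because the tables used here hold no value per library. For the same reason, leaving out each replicate, edgeR and other size factors were not run. Rebuilt levels assume that the libraries of an experiment weigh equally, and depth per library was not analysed here, so the low levels of EGR3 and IER3 have no counting interval.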
